A study of Mus musculus with 8 samples.

Results

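The semaphorins, plexins, neuropilins, ephrins, Eph receptors, Slits and Robos are cell-surface and secreted guidance proteins, described here as 59 genes of the 18193 measured in sorted hair follicle cells of the mouse. Members are all measured genes whose symbols belong to these families: 20 semaphorins, 9 plexins, 2 neuropilins, 8 ephrins, 13 Eph receptors, 3 Slits and 4 Robos. For the 40 members with more than 1 probe set, the brightest over the 8 arrays was used.

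The series compared skin cells from mice with a Runx1 transgene (Runx1 iTG, whose source label reads "Tet-on Runx1 transgenic") and from WT mice. Doxycycline was fed for 1 day to all mice, WT included (1 g in each kg of food), and the labels give repression of H2BGFP as its purpose. All skin showed the morphology of telogen, when follicles rest. Mice were at postnatal day 20, and only replicate 2 of each Runx1 iTG population is labelled day 21. Cells positive for keratin 15-GFP and α6-integrin were sorted by the surface protein CD34 into 4 groups of 2 arrays each: Runx1 iTG CD34-negative and WT CD34-negative cells (labelled hair germ), and Runx1 iTG CD34-positive and WT CD34-positive cells (bulge). The promoter that drives the transgene, the strain and the number of mice behind each sample are not given in the sources used here. Whether both populations of one replicate number came from the same animal is not given either, so samples of the populations may not be independent.

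Runx1 itself had signals of 12107 and 12882 in Runx1 iTG and 495 and 489 in WT CD34-negative cells, and of 19461 and 13699 in Runx1 iTG and 658 and 904 in WT CD34-positive cells. Cd34 lay between 2.42 and 53.2 on the CD34-negative arrays and between 4902 and 11208 on the CD34-positive arrays, which matches the sort. The hair germ label was not borne out by its own markers: of 7, 5 were lower in the CD34-negative cells (Lgr5, Gli1, Msx2, Lef1 and Cdh3) and 1 was higher (Cux1). All 5 markers of the infundibulum and sebaceous gland (Krt79, Lrig1, Plin2, Scd1 and Cidea) were higher there, with summed signals of 46771 to 51994 in CD34-negative and 7819 to 15667 in CD34-positive cells. The populations are therefore named by CD34 below. The arrays also split by replicate number: Xist, expressed from the inactive X chromosome, had signals of 9973 to 11103 on every replicate 2 array and 30.2 to 72.5 on every replicate 1 array, so the spread within each group includes this difference.

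In guidance signalling, semaphorins act through plexins, and most of the secreted class 3 semaphorins need a neuropilin as co-receptor. Ephrins are membrane-bound ligands that meet Eph receptor tyrosine kinases on neighbouring cells, and can signal back into the cell that carries them. Secreted Slits bind Robo receptors. The systems are best known for steering axons and blood vessels, and they also control contact, migration and sorting of epithelial cells, including keratinocytes.

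The promoters of 4 members are shown because these neuropilins and secreted ligands differed between the populations when genotypes were averaged. Both neuropilins and Sema3a were higher in the CD34-negative cells, and Sema3e was lower. For Nrp1, the WT signals were alike in both populations. Each line gives the 250 bases before the start site in the RefSeq promoter table (build GRCm38.p6), and capitals mark the only RUNX recognition letters found.
Nrp1 (chr8:128358823-128359072, plus strand): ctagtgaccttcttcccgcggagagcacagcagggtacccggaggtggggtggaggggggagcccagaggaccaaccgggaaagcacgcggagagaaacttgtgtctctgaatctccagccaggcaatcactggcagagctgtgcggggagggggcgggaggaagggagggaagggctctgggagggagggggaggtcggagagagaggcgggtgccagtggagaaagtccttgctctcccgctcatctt
Nrp2 (chr1:62703067-62703316, plus strand): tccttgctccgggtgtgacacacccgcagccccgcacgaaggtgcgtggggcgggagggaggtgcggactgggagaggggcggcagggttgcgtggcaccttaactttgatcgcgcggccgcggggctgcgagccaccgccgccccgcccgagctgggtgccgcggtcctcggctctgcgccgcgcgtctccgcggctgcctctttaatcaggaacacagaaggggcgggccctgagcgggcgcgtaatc
Sema3a (chr5:13396534-13396783, plus strand): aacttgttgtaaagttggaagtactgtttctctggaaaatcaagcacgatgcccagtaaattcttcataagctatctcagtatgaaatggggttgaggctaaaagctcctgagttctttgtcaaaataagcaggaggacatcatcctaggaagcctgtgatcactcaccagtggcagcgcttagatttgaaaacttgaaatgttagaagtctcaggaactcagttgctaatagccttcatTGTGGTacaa
Sema3e (chr5:14025026-14025275, plus strand): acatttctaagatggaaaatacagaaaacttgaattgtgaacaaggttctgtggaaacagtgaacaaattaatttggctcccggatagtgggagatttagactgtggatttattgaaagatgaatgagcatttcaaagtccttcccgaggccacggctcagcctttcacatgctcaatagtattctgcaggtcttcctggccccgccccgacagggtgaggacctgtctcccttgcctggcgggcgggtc
The Nrp2 and Sema3e windows end just before the annotated start of the gene. Those of Nrp1 and Sema3a lie inside the annotated genes, which begin at 128358591 and 13124822, so they belong to internal start sites. The windows differ in base composition: that of Nrp2 is 72.4% G or C with 32 CpG dinucleotides, that of Nrp1 64.4% with 11, that of Sema3e 48.0% with 7 and that of Sema3a 40.8% with 2. Over all promoters in the table the medians are 52.4% and 6. The RUNX letters TGTGGT or TGCGGT were searched on both strands. The Sema3a window holds TGTGGT once, starting 10 bases before the start site, and the other 3 hold neither.

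Promoters were listed for 52 of the 59 members, 68 promoters in all. TGTGGT occurred in 11.8% of them, against 14.0% of all 32851 promoters, and TGCGGT in 8.82% against 5.1%. Either form was present in 19.1% of the members' promoters and 18.6% of all promoters. These are matches of letters and show no binding.

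Signals were read against a background limit of 31.1, the 95th percentile of 27 bacterial control probe sets with no target in mouse RNA. Signals of different probe sets are not comparable in size, so each gene is compared only with itself. Of the 59 members, 38 (64.4%) lay above the limit on all 8 arrays, against 61.9% of all genes. Another 18 did so on 1 to 7 arrays, and 3 (Epha5, Epha10 and Sema4f) on none. Both neuropilins, 8 of 9 plexins and 7 of 8 ephrins were above background on every array, but 6 of 13 Eph receptors and 1 of 3 Slits. The ephrin-B ligand Efnb2, for example, had 9167 and 8902 in Runx1 iTG and 9828 and 10269 in WT CD34-negative cells, against 6083 and 7037 in Runx1 iTG and 7146 and 8445 in WT CD34-positive cells.

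**Figure D1:**
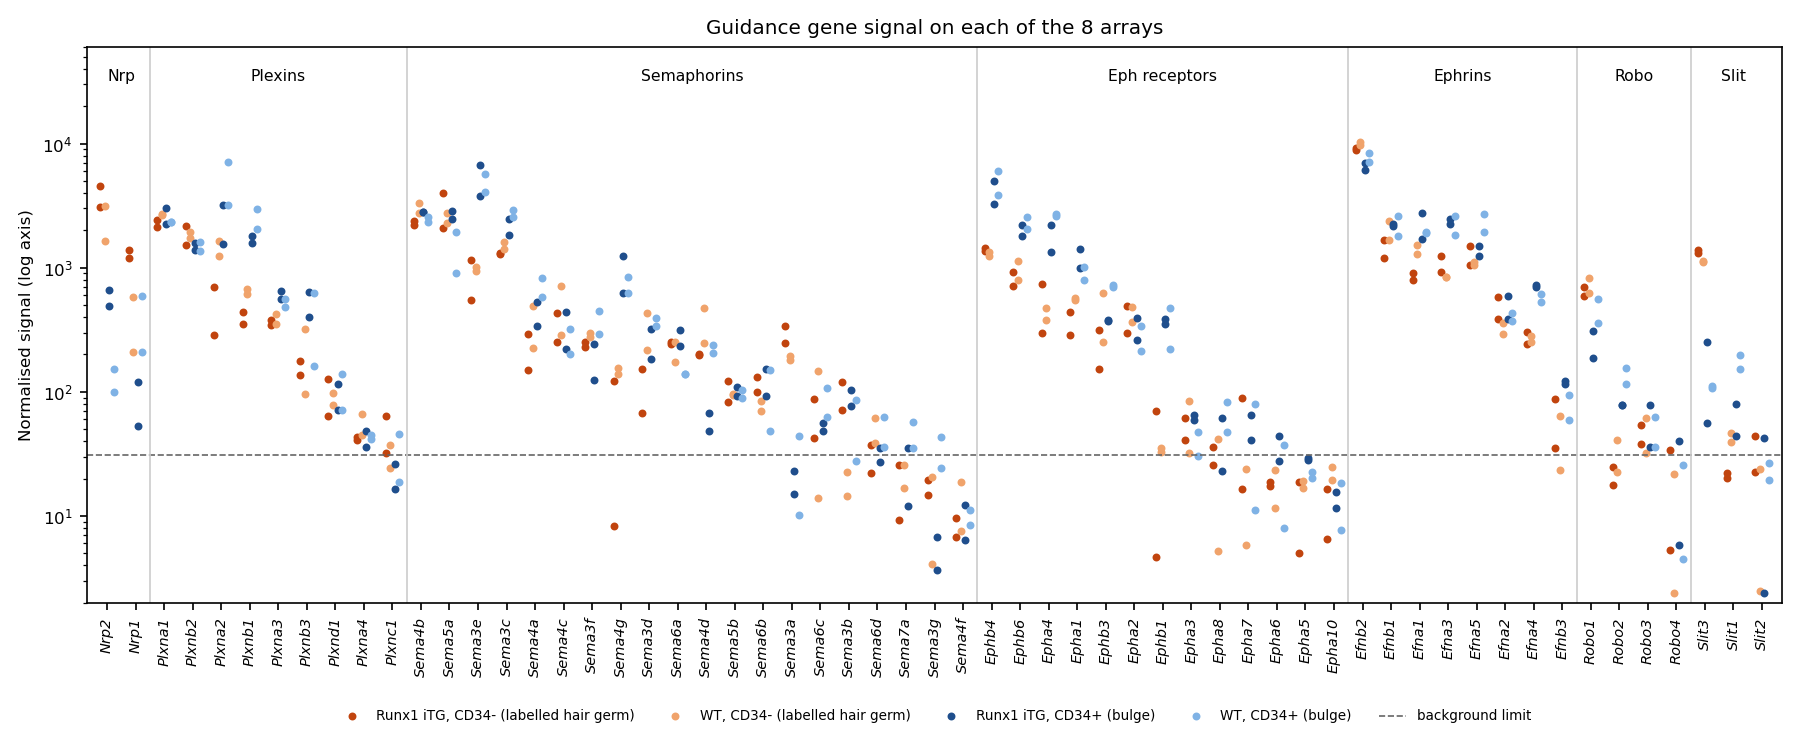
Normalised signal (log axis) of the 59 guidance genes, 1 point per array, grouped by family and coloured by genotype and population; the dashed line is the background limit of 31.1. Nrp2 and Slit3 lie higher on all CD34-negative arrays, whereas Sema3e, Plxnb1, Ephb4 and Epha4 lie lower on them without overlap.

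The comparison of CD34-negative with CD34-positive cells asked which guidance genes differ between the sorted compartments. Over both genotypes, 21 of the 59 members (35.6%) passed the test, against 18.3% of all genes. Of these, 6 were higher in the CD34-negative cells (9.17% of all genes were) and 15 were lower (9.11% of all genes were). The test was limma's moderated test with Benjamini-Hochberg adjustment over all 18193 genes, which holds for every adjusted p below, and the threshold was 0.05. Differences are log2, CD34-negative minus CD34-positive, with their SE. The members' median difference was -0.38, against -0.09 over all genes. With members below background set to their bound the medians were -0.15 and 0. The arrays of the populations did not overlap for 20 members (22.4% of all genes), 5 of them higher (10.8% of all genes) and 15 lower (11.6%). In bulk samples, fewer cells of a type and less RNA per cell cannot be told apart.

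Neuropilins are co-receptors that bind class 3 semaphorins and vascular endothelial growth factors, and both were higher in the CD34-negative cells. Nrp2 had signals of 4565 and 3062 in Runx1 iTG and 1649 and 3156 in WT CD34-negative cells, against 656 and 496 in Runx1 iTG and 152 and 99.8 in WT CD34-positive cells. Every CD34-negative array lay above every CD34-positive array, an 11-fold difference (log2 3.46, SE 0.27, adjusted p = 2.96e-05). All 4 Nrp2 probe sets gave a difference of 3.34 to 4.30. Nrp1 had 1399.8 and 1201 in Runx1 iTG and 209 and 586 in WT CD34-negative cells, against 52.9 and 120.4 in Runx1 iTG and 209 and 595 in WT CD34-positive cells. The populations overlapped for Nrp1, and its WT signals were alike in both. The averaged difference was 2.0 (SE 0.45, adjusted p = 0.0121), and within Runx1 iTG cells it was 4.02 (SE 0.63, adjusted p = 0.00378). In WT cells it was -0.01, with a 95% confidence interval of -1.43 to 1.40. Within each WT population the higher Nrp1 signal was on the replicate 2 array, where Xist was high. The averaged call on Nrp1 was lost without WT bulge replicate 1 (adjusted p = 0.0539), WT hair germ replicate 2 (0.0604) or Runx1 iTG hair germ replicate 1 (0.0552).

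Among the semaphorins, the ligands, 5 of 20 passed (18.3% of all genes did), 2 higher and 3 lower. Sema3a, the secreted ligand that signals through Nrp1 and A-class plexins, had 339 and 248 in Runx1 iTG and 193 and 179 in WT CD34-negative cells. Against this stood 15.0 and 23.1 in Runx1 iTG and 10.2 and 44.0 in WT CD34-positive cells. Only 1 of the 4 CD34-positive arrays exceeded background, so the 11.7-fold difference (log2 3.55, SE 0.55, adjusted p = 0.00167) rests on dim signals on that side. In Runx1 iTG cells it is at least 9.32-fold, measured against the background limit (adjusted p = 0.0110). Sema3e, a secreted ligand that binds plexin D1 without a neuropilin, ran the other way. It had 1158 and 548 in Runx1 iTG and 932 and 1006 in WT CD34-negative cells, against 3753 and 6761 in Runx1 iTG and 4092 and 5739.7 in WT CD34-positive cells. The groups did not overlap, with a difference of -2.49 (SE 0.27, adjusted p = 0.000231), and its 4 probe sets gave -2.18 to -2.49.

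The remaining semaphorin calls were less even. Sema4g, a transmembrane class 4 semaphorin, had 8.33 and 122 in Runx1 iTG and 156 and 139 in WT CD34-negative cells, against 1235 and 626 in Runx1 iTG and 621 and 841 in WT CD34-positive cells. All CD34-negative arrays were lower (-3.54, SE 0.69, adjusted p = 0.00590), with 1 array below background. Sema3c, a secreted ligand for both neuropilins, was lower by a smaller step of -0.78 (SE 0.17, adjusted p = 0.00925), with means of 1398 in CD34-negative and 2408 in CD34-positive cells. Its second probe set gave -0.44 (adjusted p = 0.298 over all probe sets). Sema4d, the ligand of plexin B1, was called higher (1.21, SE 0.34, adjusted p = 0.0328), but its populations overlapped and its other probe sets gave -0.10 and -0.93. Leaving out any of 6 arrays ended the Sema4d call, with adjusted p between 0.0761 and 0.118. The arrays were both WT bulge arrays, both Runx1 iTG hair germ arrays, WT hair germ replicate 1 and Runx1 iTG bulge replicate 1. Sema4b, also of class 4, had nearly equal means of 2625 and 2626, with a 95% confidence interval for the difference of -0.33 to 0.33. Within WT cells Sema5a, a class 5 transmembrane semaphorin, gave 0.91 (SE 0.39, adjusted p = 0.212) and did not pass.

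Of the 9 plexins, the semaphorin receptors, 2 passed (18.3% of all genes did) and both were lower in the CD34-negative cells (9.11%). Plxnb1, the receptor for Sema4D, had 438 and 355 in Runx1 iTG and 619.6 and 672 in WT CD34-negative cells, against 1817 and 1588 in Runx1 iTG and 2069 and 2976 in WT CD34-positive cells. The arrays did not overlap, and the difference was -2.03 (SE 0.19, adjusted p = 8.95e-05). Plxna2, which pairs with neuropilins and also binds class 6 semaphorins directly, had 285 and 701 in Runx1 iTG and 1238 and 1644 in WT CD34-negative cells, against 1550.3 and 3193 in Runx1 iTG and 3224 and 7096 in WT CD34-positive cells. One array pair overlapped, between the WT CD34-negative and the Runx1 iTG CD34-positive cells. The difference was -2.03 (SE 0.36, adjusted p = 0.00356), and its 4 probe sets gave -1.76 to -2.24. Plxna1 was level, with means of 2469 and 2468 and an interval of -0.35 to 0.35. Plxnd1, the Sema3E receptor, had means of 88.9 in CD34-negative and 94.9 in CD34-positive cells, and its interval of -1.09 to 0.90 spans differences of a size that other members showed.

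The Eph receptors and ephrins gave calls in a single direction: 5 of 13 receptors and 3 of 8 ephrins were lower in the CD34-negative cells (9.11% of all genes were) and none was higher (9.17% of all genes were). These counts use the chosen probe sets, and Efnb2 passed as higher on 3 others. The lower receptors were Epha1, Epha4, Ephb1, Ephb4 and Ephb6, and the lower ligands were the membrane-anchored ephrin-As Efna1, Efna3 and Efna4. Ephb4, the receptor for ephrin-B2, had 1358 and 1443 in Runx1 iTG and 1341 and 1251 in WT CD34-negative cells, against 4962 and 3247 in Runx1 iTG and 3847 and 6014 in WT CD34-positive cells. The CD34-negative arrays lay close together and below all others (-1.71, SE 0.20, adjusted p = 0.000330). Epha4, which binds ephrins of both classes, had 298 and 743 in Runx1 iTG and 471 and 379 in WT CD34-negative cells, against 2196 and 1350.1 in Runx1 iTG and 2708 and 2633 in WT CD34-positive cells. These also did not overlap (-2.27, SE 0.29, adjusted p = 0.000583), and 5 probe sets gave -1.88 to -2.59.

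The other Eph calls ranged from large to modest. Ephb1, an ephrin-B receptor, had the widest difference of the family (-3.81, SE 0.74, adjusted p = 0.00601), from 4.68 and 69.8 in Runx1 iTG and 35.5 and 32.6 in WT CD34-negative cells, against 352 and 389 in Runx1 iTG and 475 and 223 in WT CD34-positive cells. The signal of 4.68 was below background and the other CD34-negative signals were 32.6 to 69.8, so the size of the difference is uncertain. Without Runx1 iTG hair germ replicate 1 the difference within Runx1 iTG cells was -2.41, against -4.36 with all arrays. Ephb6, a receptor without kinase activity, averaged 880 in CD34-negative and 2143 in CD34-positive cells (-1.28, adjusted p = 0.00162). Epha1 gave -1.21 (adjusted p = 0.00457), with means of 443 in CD34-negative and 1029 in CD34-positive cells. Among ligands, the differences were -1.26 for Efna3 (adjusted p = 0.00124), -1.24 for Efna4 (0.00345) and -0.90 for Efna1 (0.00944), all without overlap. Efna5 passed as lower within WT cells (-1.09, SE 0.27, adjusted p = 0.0407), but this call was lost in 9 alternatives (adjusted p between 0.0552 and 0.265), among them leaving out any 1 of the 4 WT arrays. Its difference averaged over genotypes did not pass (-0.60, adjusted p = 0.0564), and the genotypes were not shown to differ in it (0.98, adjusted p = 1.00). Efnb2, whose arrays are given above, was higher on all 4 CD34-negative arrays, yet missed the threshold on its chosen probe set (0.42, interval 0.10 to 0.73, adjusted p = 0.0693). Its other 3 probe sets gave 0.54 to 0.63, with adjusted p of 0.0186 to 0.0395 over all probe sets.

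Slits and Robos split within each family. Slit3, a secreted Robo ligand, had 1395 and 1316 in Runx1 iTG and 1105 and 1129 in WT CD34-negative cells, against 254 and 56.2 in Runx1 iTG and 111 and 108 in WT CD34-positive cells. It was 10.8-fold higher with no overlap (3.43, SE 0.41, adjusted p = 0.000369). Slit1 ran the other way at dim signals (-1.75, SE 0.46, adjusted p = 0.0264), with 20.2 and 22.2 in Runx1 iTG and 46.5 and 39.7 in WT CD34-negative cells, against 80.3 and 44.1 in Runx1 iTG and 153 and 198 in WT CD34-positive cells. Its populations overlapped, and leaving out any array but Runx1 iTG bulge replicate 2 gave an adjusted p of 0.0505 to 0.0965. Robo1, a Slit receptor, was higher in CD34-negative cells, with means of 681 against 329 in CD34-positive cells and no overlap (1.05, SE 0.26, adjusted p = 0.0204). Its other probe sets disagreed, at 0.83 and -1.16. Robo1 lost its call without WT bulge replicate 2, WT hair germ replicate 2, Runx1 iTG bulge replicate 2 or Runx1 iTG hair germ replicate 1, with adjusted p of 0.0695 to 0.0876. Robo2 was lower, with 17.7 and 25 in Runx1 iTG and 22.6 and 40.7 in WT CD34-negative cells, against 78.9 and 78.3 in Runx1 iTG and 115 and 157 in WT CD34-positive cells (-2.02, SE 0.48, adjusted p = 0.0160). Only 1 of the 4 CD34-negative arrays exceeded background, so the size is uncertain. The Robo2 call was lost without WT bulge replicate 2 (0.0684) or Runx1 iTG hair germ replicate 1 (0.0513).

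Within single genotypes fewer members passed. In Runx1 iTG cells 18 did, against 9.76% of all genes: 6 higher (4.5% of all genes) and 12 lower (5.26%). In WT cells 10 did, against 6.93% of all genes: 3 higher (3.14%) and 7 lower (3.79%). Nrp2, Sema3a and Slit3 passed as higher in each genotype. Sema3e, Plxnb1, Epha4, Ephb4, Ephb6 and Efna3 passed as lower in each genotype. Within WT, Nrp2 and Plxnb1 were the 2 members that kept their call in all 17 alternatives. Within Runx1 iTG 0 of 18 did, where Nrp1, Nrp2, Plxnb1 and Sema3e lost theirs only with day 20 arrays, which leaves 1 array in each Runx1 iTG group. These counts depend on which arrays enter. Leaving out any 1 array lowered the count in Runx1 iTG cells. The fall was largest without Runx1 iTG bulge replicate 1, bulge replicate 2 or hair germ replicate 1. Leaving out any 1 WT array lowered the count in WT cells. The count over all genes fell in the same fits, each of which leaves 1 array in a group.

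**Figure D2:**
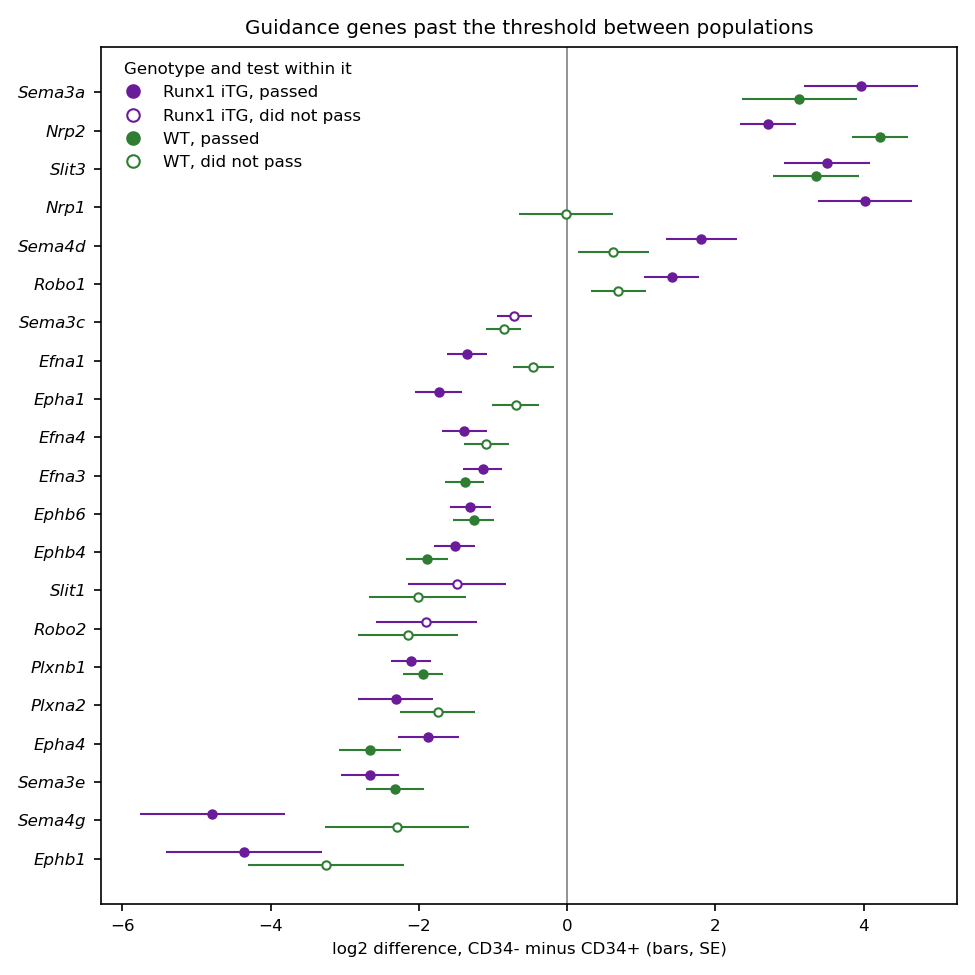
Log2 difference, CD34-negative minus CD34-positive cells, of the 21 members past the threshold over both genotypes, in Runx1 iTG and WT cells; bars are SE from limma and filled points passed within that genotype. Both genotypes lie on the same side of 0 except for Nrp1, which is 4.02 in Runx1 iTG and -0.01 in WT cells.

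Markers of other cell types were read beside these differences. The fibroblast and dermal papilla list differed with the populations: its 10 genes summed to 503 to 941 on CD34-negative and 5304 to 9866 on CD34-positive arrays, led by the collagen genes Col1a1 and Col1a2, whereas Lum and Sox2 were below background on every array. The 8 melanocyte genes summed to 487 to 1197 on CD34-negative and 2178 to 4574 on CD34-positive arrays, led by Mitf (374 to 868 and 1886 to 4180), whereas Tyr, Mlana and Kit each exceeded background on 1 array. The 10 endothelial genes, relevant because neuropilins and Eph proteins act in vessels, summed to 341 to 661 on CD34-negative and 432 to 731 on CD34-positive arrays, with Cldn5 below background on every array. The 7 Schwann and nerve genes summed to 473 to 667 on CD34-negative and 474 to 1402 on CD34-positive arrays, with Cdh19 below background on every array. The 7 immune genes summed to 441 to 696 and 440 to 856, with Ptprc below background throughout. The 5 pericyte and muscle genes summed to 205 to 254 and 234.8 to 360.0, with Des below background throughout. The 4 lymphatic endothelial genes summed to 209 to 593 and 146 to 205, with Prox1 below background throughout. The 3 basal epidermal genes summed to 30409 to 41982 and 42404 to 55724. The part of these cell types, and of the infundibulum and sebaceous genes above, in the guidance gene differences was not tested.

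The genotype comparison asked whether a raised Runx1 level changed guidance genes. No member passed in either population: 0 of 59 in CD34-negative cells (0.0275% of all genes passed), 0 in CD34-positive cells (0.022% of all genes) and 0 averaged over both (0.0495% of all genes). With the replicate number as a block, Plxna2 passed in the averaged comparison, where 15 of all genes did (9 without the block). At an unadjusted p under 0.05, limma gave 7 members in CD34-negative cells (6.78% of all genes), 10 in CD34-positive cells (5.96%) and 9 averaged (8%). A typical difference between 2 groups of members had an SE of 0.54. Differences well above this size also missed the threshold, such as that of Nrp2 in CD34-positive cells (2.21, SE 0.38, adjusted p = 0.236). The counts of 0 therefore do not show that members were unchanged. Arrays of the genotypes did not overlap for 24 members in CD34-negative cells (35.7% of all genes) and 27 in CD34-positive cells (33.8%).

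Among the members, Nrp2 had the smallest unadjusted p in CD34-positive cells and averaged over populations, and Nrp1 in the test of unequal genotype differences. In CD34-positive cells, Nrp2 stood at 656 and 496 in Runx1 iTG against 152 and 99.8 in WT, a difference of 2.21 (SE 0.38, unadjusted p = 0.000168, adjusted p = 0.236). In CD34-negative cells it stood at 4565 and 3062 in Runx1 iTG against 1649 and 3156 in WT, where the arrays overlapped (0.71). Averaged over populations the Nrp2 difference was 1.46 (adjusted p = 0.126). All 4 Nrp2 probe sets gave 1.82 to 2.21 in CD34-positive cells. Nrp1 differed in opposite directions. In CD34-negative cells both Runx1 iTG arrays were above both WT arrays (1.89, SE 0.63, unadjusted p = 0.0140, adjusted p = 0.581). In CD34-positive cells both Runx1 iTG arrays, at 52.9 and 120.4, were below both WT arrays, at 209 and 595 (-2.14, SE 0.63, unadjusted p = 0.00714, adjusted p = 0.683). The difference between these differences was 4.03 (SE 0.90, unadjusted p = 0.00119, adjusted p = 0.910), and 0 of all genes passed that test (0%), with 6 members (4.61% of all genes) at an unadjusted limma p under 0.05. Of the other 3 Nrp1 probe sets, those above background on all arrays gave 3.53 and 3.18, and the dim one gave -0.90. Nrp1 and Sema4b were the 2 members whose genotypes stood apart in opposite directions in the populations, as did 4.6% of all genes. Other unequal genotype differences, CD34-negative minus CD34-positive, were 3.6 for Sema3g, which exceeded background on 1 of the 8 arrays, -1.5 for Nrp2, 0.98 for Efna5, -0.89 for Efna1 and -1.04 for Epha1, each with an adjusted p of 1.00.

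**Figure D3:**
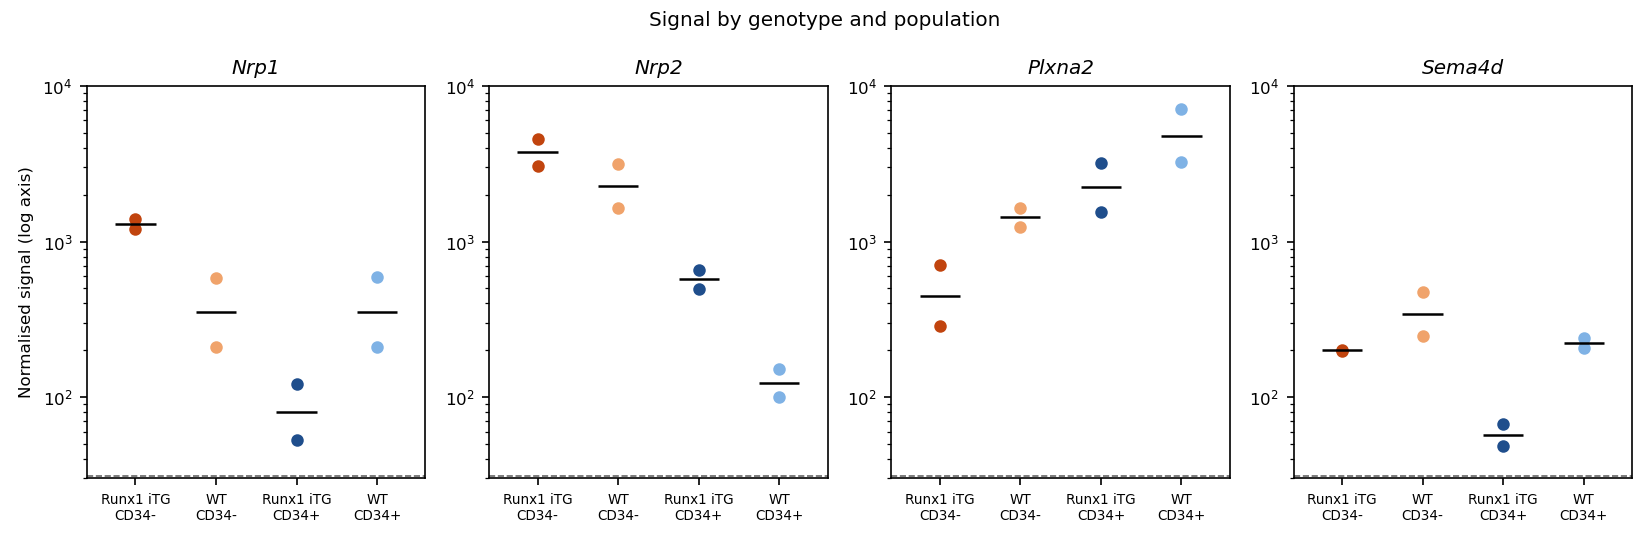
Normalised signal (log axis) of Nrp1, Nrp2, Plxna2 and Sema4d on each array, with Runx1 iTG left of WT in each population; points are arrays and lines are group means. Nrp1 is higher in Runx1 iTG than WT CD34-negative cells and lower in Runx1 iTG than WT CD34-positive cells, and no genotype difference passed the threshold without a replicate block.

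Among receptors and ligands of the semaphorin system, Plxna2 gave -1.39 averaged over populations (SE 0.36, adjusted p = 0.284). With the replicate number as a block the same difference passed (adjusted p = 0.0436). In CD34-negative cells it had 285 and 701 in Runx1 iTG against 1238 and 1644 in WT (-1.67, adjusted p = 0.493), and in CD34-positive cells 1550.3 and 3193 in Runx1 iTG against 3224 and 7096 in WT. The genotypes did not overlap within either population. Sema4d had 198 and 201 in Runx1 iTG against 475 and 247 in WT CD34-negative cells, and 48.5 and 67.4 in Runx1 iTG against 207 and 239 in WT CD34-positive cells. All 4 Runx1 iTG arrays lay below all 4 WT arrays (-1.37 averaged, adjusted p = 0.260), one of 2 members to do so, against 2.54% of all genes in either direction. Its dimmest probe set gave 0.57. In CD34-positive cells alone the Sema4d difference was -1.96 (SE 0.48, adjusted p = 0.594). Plxnb1 gave -0.63 averaged (adjusted p = 0.415) and -0.71 in CD34-negative cells (adjusted p = 0.636). In CD34-positive cells Sema5a gave 1.01 (adjusted p = 0.781), and Sema6a, a ligand of A-class plexins, gave 0.96 (adjusted p = 0.806). Other Sema5a probe sets gave 1.28, 0.72 and -0.34.

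Further members had an unadjusted p under 0.05 but did not pass. In CD34-negative cells Sema3b, a secreted semaphorin, was below background on both WT arrays and was at least 2.97-fold higher in Runx1 iTG cells by this bound (adjusted p = 0.562). Sema3d, another secreted semaphorin, gave -1.59 (adjusted p = 0.588), Sema4g -2.21 (0.728) and Efna1 -0.72 (0.636) in the same cells. The Sema4g difference rests on the Runx1 iTG signal of 8.33, below background, beside 122 in Runx1 iTG and 156 and 139 in WT. Without that array it was -0.27. In CD34-positive cells Efna5 gave -0.74 (adjusted p = 0.758) and Robo1 -0.89 (0.785), and Sema3g, below background on both Runx1 iTG arrays, was at least 1.04-fold lower there (0.758). Averaged over populations, Sema3b gave 1.61 (adjusted p = 0.463), Sema3d -1.09 (0.492), Sema5a 0.61 (0.623) and Slit1 -1.28 (0.515). Ephb4, which separated the populations, gave -0.07 between genotypes averaged over populations (95% interval -0.52 to 0.37). Plxnb2, a semaphorin class 4 receptor, gave -0.01 (-0.40 to 0.39).

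**Figure D4:**
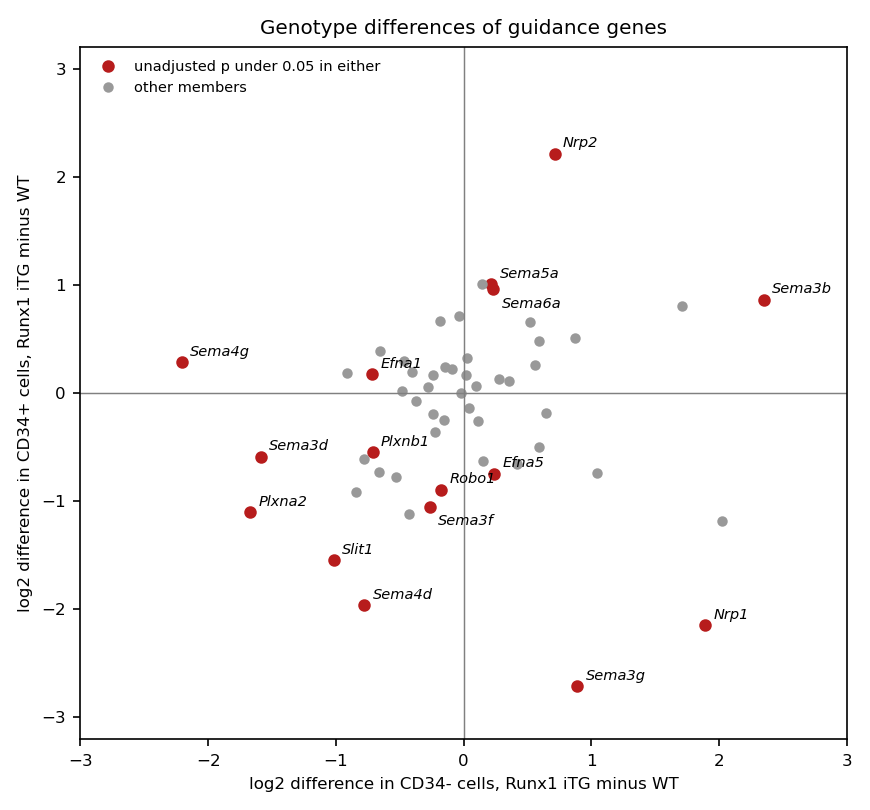
Log2 difference, Runx1 iTG minus WT, in CD34-negative cells (x) and CD34-positive cells (y) for the 56 members above background on at least 1 array; the 16 red points have an unadjusted p under 0.05 in either population. Nrp1 lies at lower right with opposite signs (1.89 and -2.14), where Sema3g and Efna5 are also named. No point passed after adjustment.

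A list of 98 measured partners and effectors of these systems, out of 101 listed, gave a setting for the members. Between populations 32 passed (18.3% of all genes did), 5 higher (9.17% of all genes) and 27 lower (9.11%) in the CD34-negative cells, with a median difference of -0.37 against -0.09 over all genes. The smallest adjusted p among the lower genes belonged to Enah, an actin regulator (-2.28, adjusted p = 1.04e-05), Nrcam, an adhesion molecule of the L1 family (-5.74, adjusted p = 6.50e-05), Flrt2, an Unc5 ligand (-2.36), Micall1 (-1.33) and Mical2, a relative of the plexin effector Mical1 (-2.93). Nrcam averaged 25 in CD34-negative and 1343 in CD34-positive cells, and the first mean is below background, so the size of its difference is uncertain. The 5 higher genes were Vav3 (3.28, adjusted p = 4.56e-05), and Vegfa, Micall2, Ntn4 and Rgmb, the last 4 named after their values were seen. Vegfa, the growth factor that binds neuropilins, averaged 1002 in CD34-negative and 188 in CD34-positive cells (2.41, adjusted p = 0.00164). Micall2 gave 2.0, the netrin Ntn4 1.06 and Rgmb, a ligand of the receptor Neo1, 0.78. Among the brightest genes of the list, the syndecan Sdc1 was lower (-0.93, adjusted p = 0.00294), and the actin regulator Cfl1 did not pass. Between genotypes 0 of the 98 passed in any comparison, with 13 at an unadjusted limma p under 0.05 in CD34-negative cells (6.78% of all genes) and 10 in CD34-positive cells (5.96%). Averaged over populations, 10 were higher and 11 lower in Runx1 iTG cells at that limma p (8% of all genes in either direction).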

How the data were processed

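Gene expression was measured in 8 samples on Affymetrix Mouse Genome 430 2.0 arrays, from 5 ng of total RNA amplified by NuGEN Ovation Pico WTA, per the labels. The authors deposited 1 linear intensity per probe set and array, for 45101 probe sets. Every array has a mean of 500.002 once its extreme 2% at each end is dropped; the program behind this is unstated in the labels and the file header. Amplification from little RNA can widen the scatter of dim genes.

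From these intensities, 64 control probe sets were removed, each array was brought to the same 75th percentile, a floor of 2.42 was set (it touched 3.48% of values), and values were logged to base 2. Names came from the platform annotation (34945 with 1 symbol; 932 with several were left out). Deposited median intensity was 101.7 to 127 on CD34-negative and 131.9 to 162 on CD34-positive arrays. The share of probe sets above background was 69% to 73.7% on CD34-negative and 73.6% to 77% on CD34-positive arrays. The 2 arrays per group limit precision; the labels call them biological replicates.

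With limma 3.58.1 (R 4.3.3), 1 model with 4 group means covered all 8 arrays (intensity trend; 4 residual degrees of freedom, 9.87 in total after moderation), with 7 contrasts and Benjamini-Hochberg adjustment over 18193 genes. The fit was tested on simulated data with independent noise and changes only among the brighter genes. That test cannot speak for dim genes or for samples that share an animal. Where every array of a group was below background, the other group's mean over the limit is given as "at least". The members named are Nrp1, those past the threshold, and up to 5 members per direction and contrast with the smallest unadjusted p under 0.05. Of the partner and marker lists, up to 6 members per contrast by adjusted p and the brightest 3 were named, with exceptions marked; 1 of these is not reported here. Alternatives were quantile normalisation, the mean of probe sets, an offset of 16 with no floor, a filter on dim genes, no intensity trend, day 20 arrays, replicate blocks, fits on the compared groups only, and leaving out each array. Members and lists were chosen with earlier results of these data known. Promoters come from RefSeq (GRCm38.p6).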

Additional observations from a re-analysis of the deposited data

Results flagged for a closer look

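For 2 members, Nrp1 and Sema4b, every Runx1 iTG array lay on one side of the WT arrays in CD34-negative cells and on the other side in CD34-positive cells. This was so for 3.39% of members and 4.6% of all genes. For Nrp1 the genotype difference was 1.89 in CD34-negative and -2.14 in CD34-positive cells, and the difference between them was 4.03 (limma, unadjusted p = 0.00119, adjusted p = 0.910). For Sema4b, signals were 2191 and 2378 in Runx1 iTG against 3325 and 2742 in WT CD34-negative cells, and 2806 and 2814 in Runx1 iTG against 2574 and 2341 in WT CD34-positive cells. Its genotype differences were -0.40 in CD34-negative and 0.20 in CD34-positive cells, which differed by -0.60 (limma, unadjusted p = 0.0711, adjusted p = 1.00). Neither passed after adjustment.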

How the results depend on the processing

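Of the 21 members that differed between populations over both genotypes, 14 passed in all 16 alternatives: Nrp2, Sema3a, Slit3, Sema3e, Sema4g, Plxna2, Plxnb1, Epha1, Epha4, Ephb1, Ephb4, Ephb6, Efna3 and Efna4. No direction reversed among 1283 alternative values of 79 named differences. Of these values, 1109 kept their side of the threshold, 173 lost their call and 1 gained one. Those kept include differences that did not pass in the main fit and stayed so. Many alternatives, such as replicate blocks or leaving out an array outside the comparison, cannot change the difference itself. These totals therefore do not measure stability. With the mean of probe sets the difference fell to 0.24 for Robo1 (adjusted p = 0.665) and 0.06 for Sema4d (0.929), and Slit1 stood at -0.90 (0.257) and Sema3c at -0.61 (0.0604). Quantile normalisation moved the median of all genes between populations to 0.03, against -0.09, and ended the Slit1 call (0.0612). Without the intensity trend Nrp1 (0.0631), Efna1 (0.0623), Robo1 (0.0661) and Sema3c (0.0636) missed the threshold. With day 20 arrays only, which leaves 1 array in each Runx1 iTG group, assumed to vary like the others, all 7 less stable members missed it (0.0627 to 0.121).

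The count over both genotypes was 16 to 20 when 1 array was left out. The count in WT cells was 10, and became 2 without the intensity trend and 3 to 11 with 1 array left out. The count in Runx1 iTG cells was 18, and became 6 without the trend, 6 with only the compared groups in the fit, 4 with day 20 arrays only, and 5 to 16 with 1 array left out. The genotype and unequal-difference counts remained 0 with any array left out.

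With the replicate number as a block, 21 members passed over both genotypes (3335 of all genes did). Averaged over populations, 1 genotype difference passed, Plxna2 (-1.39, adjusted p = 0.0436). Of all genes, 15 passed there, against 9 without the block. In Runx1 iTG cells the block gave 17 members (1824 of all genes). Deviations of same-numbered arrays correlated at 0.03 between WT populations and 0.08 between Runx1 iTG populations. Between genotypes they correlated at 0.08 in CD34-positive and -0.03 in CD34-negative cells. All genes enter these correlations, dim ones included, so they cannot show whether same-numbered arrays share an animal. The main fit used no pairing.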
